A study of Mus musculus with 8 samples.

Results

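Gpr17, Bcas1 and Olig1 are 3 genes of the oligodendrocyte lineage whose messenger RNA fell in the medial prefrontal cortex (mPFC) of mice labelled as lacking GPR158 in excitatory neurons. They were found in the deposited table by their positions in GENCODE M21 (mouse genome GRCm38), and they are 3 of its 2372 genes. A gene on the opposite strand of Gpr17, whose entry begins at base 31931325 of chromosome 18, is described with them because it spans the whole of Gpr17. The 3 genes were chosen by their fold change and adjusted p between the genotypes, so those values are given as a description. The recomputed values without single CaKO libraries, given further on, show how far that description rests on 1 mouse and are no further test.

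RNA was sequenced from 8 adult male C57Bl/6J mice without treatment. In 4 of them, called CaKO and labelled CamK2A-Cre;Gpr158flox/flox, a Cre recombinase under the CamK2A promoter, which is active in forebrain excitatory neurons, removes the floxed Gpr158 gene. The other 4 were littermate controls labelled Gpr158flox/flox, which carry the floxed gene without Cre. Both groups therefore share the floxed allele, and a separate group with Cre and no floxed allele was not analysed here. The CamK2A promoter is not known as a promoter of the oligodendrocyte lineage, which the 3 genes mark.

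The values are normalised read counts of the 4 CaKO libraries, with 1 mouse per library, and the fold change between genotypes, given as a log2 ratio of CaKO over control, with its p-value from the authors' deposited table. Control libraries' own counts were not analysed here. The genes with values held 2832931 to 3183638 reads per CaKO library, and total depth is unknown. All 2372 genes have an unadjusted p below 0.05 per the authors' deposited table, and a gene without a value had a higher p or was not tested. The adjusted p-values correspond to 12938 tested genes, and "rose" and "fell" are used below for an adjusted p under 0.05. No entry (0 of 2372) overlapped Gpr158 itself, so the targeted transcript either did not fall at an unadjusted p below 0.05 in this tissue or was not tested, and these data do not show its loss. The tissue label was looked at with a neuronal marker: Camk2a, the kinase of excitatory synapses, lay between 37911 and 50901 normalised counts in the CaKO libraries. This gene does not tell the mPFC from other forebrain tissue. Its own log2 ratio was -0.20 per the authors' deposited table (adjusted p = 0.316). In bulk tissue, fewer cells of a type and less RNA per cell cannot be told apart.

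Oligodendrocytes, the myelin-forming cells of the brain, arise from dividing precursors that persist in the adult cortex. A precursor that commits to differentiate passes through a short premyelinating stage before it wraps axons. GPR17 is a G protein-coupled receptor, related to the P2Y and cysteinyl leukotriene receptors, that appears at this committed stage and is switched off in mature cells; its sustained activity holds differentiation back. BCAS1 is a cytoplasmic protein of newly formed, early myelinating oligodendrocytes. OLIG1 is a basic helix-loop-helix transcription factor present through the lineage and needed for maturation and repair of myelin. LIMS2, also called PINCH2, is a LIM-domain adaptor that links integrin-linked kinase to focal adhesions.

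Gpr17, the receptor, had the largest fold change of the 3 genes. It lies on the minus strand of chromosome 18 from 31942997 to 31949636, with 2 exons and 5195 bases of exon. CaKO replicates 1 to 4 held 749, 542, 522 and 638 normalised counts of Gpr17. Replicates 1 and 4 were the higher libraries and replicates 2 and 3 the lower ones, with the highest 1.43 times the lowest. The mean was 613 ± 104 (SD, n = 4), a coefficient of variation of 17.0%, against 4.06% from the counting of reads alone. Per the authors' deposited table Gpr17 fell 1.70-fold, a log2 ratio of -0.76 with an adjusted p = 2.46e-06. If that p came from a Wald test, its standard error is 0.13 and the 95% interval of the log2 ratio runs from -1.01 to -0.51. The CaKO mean and the fold change of the authors' deposited table imply a control level of 1040 normalised counts, which has no spread of its own here. Every CaKO library lay below it, the highest at 72.0% of it.

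Bcas1, the marker of newly myelinating cells, was the most even of the 3 genes across the CaKO mice. It occupies chromosome 2 from 170346991 to 170427845 on the minus strand, with 3775 bases of exon. Its normalised counts were 721, 778, 623 and 799 in CaKO replicates 1 to 4. Replicate 3 stood lowest and the other libraries lay between 721 and 799. The mean was 730 ± 78.6 (SD, n = 4), a coefficient of variation of 10.8%. Bcas1 fell 1.51-fold per the authors' deposited table (log2 ratio -0.59, adjusted p = 0.00769). The implied 95% interval is -0.88 to -0.30, and the control level implied by the authors' deposited table is 1100 normalised counts. The highest CaKO library was at 72.7% of that level. Exons of Bcas1os1 and Bcas1os2 on the opposite strand cover 12.6% of the exon bases of Bcas1, and neither has a value.

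Olig1, the transcription factor, was the most abundant and the most variable. This gene of 1 exon lies on the plus strand of chromosome 16 from 91269772 to 91271933. CaKO replicates 1 to 4 held 1444, 1160, 973 and 1621 normalised counts of Olig1. Replicates 1 and 4 were again the higher pair, and the highest library was 1.67 times the lowest. The mean was 1300 ± 289 (SD, n = 4), a coefficient of variation of 22.2%. Olig1 fell to 71.5% of control per the authors' deposited table (log2 ratio -0.48, adjusted p = 0.0305), with an implied 95% interval from -0.76 to -0.20. Its highest CaKO library reached 89.2% of the control level of 1818 normalised counts implied by the authors' deposited table. When CaKO libraries were left out in turn, the call of Olig1 ended without replicate 2 (log2 ratio -0.43) and without replicate 3 (-0.37). The calls of Gpr17 and Bcas1 held without any 1 CaKO library, between -0.87 and -0.69 for Gpr17 and between -0.64 and -0.52 for Bcas1. The antisense gene Gm15966 shares 7.26% of the exon bases of Olig1 and has no value.

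**Figure D1:**
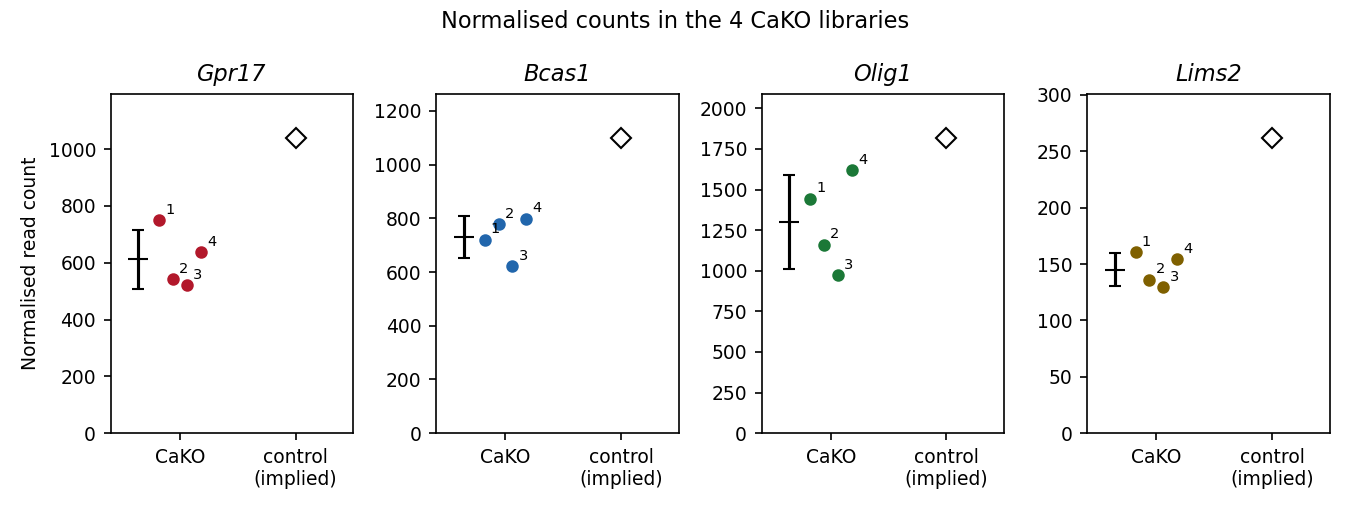
Normalised read counts (y axis, from 0) of Gpr17, Bcas1, Olig1 and Lims2 in the 4 CaKO libraries (numbered points), with the CaKO mean and SD as a bar on their left. The open diamond is the control level implied by the CaKO mean and the deposited fold change, not a measured value; every CaKO library lies below it, Olig1 in replicate 4 nearest at 89.2%.

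Against the whole table, 255 of 12938 genes were called lower in CaKO, a background of 1.97%, and 164 were called higher (1.27%). At an unadjusted p below 0.05 the shares were 8.68% lower and 7.14% higher. Among the 255 genes that fell, ordered by the size of the fall per the authors' deposited table, Gpr17 was number 46, Bcas1 number 100 and Olig1 number 153. These positions describe genes that were picked for falling.

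Per kilobase of exon, the CaKO levels kept the order Olig1, Bcas1, Gpr17 and Lims2 in every library. The means were 601 ± 134 normalised counts per kilobase for Olig1, 193 ± 20.8 for Bcas1 and 55.3 ± 5.65 for Lims2 (SD, n = 4), and Gpr17 averaged 118 with a range of 100.5 to 144. No neighbouring pair in this order overlapped: the lowest Olig1 library (450 per kilobase) stood above the highest of Bcas1 (212), the lowest of Bcas1 (165) above the highest of Gpr17 (144), and the lowest of Gpr17 (100.5) above the highest of Lims2 (61.3).

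The entry that spans Gpr17 on the plus strand, from 31931325 to 31958619, has the same start and end as 1 of the 12 annotated transcripts of Lims2. GENCODE M21 starts the gene itself further upstream, at 31922290, so the match is to that transcript and not to the whole gene. Lims2 had 161, 136, 129 and 154 normalised counts in CaKO replicates 1 to 4. The order of the libraries was that of Gpr17, with replicate 1 highest and replicate 3 lowest. The mean was 145 ± 14.8 (SD, n = 4), and its coefficient of variation of 10.2% was close to the 8.35% that counting gives at this depth. Lims2 fell 1.81-fold per the authors' deposited table (log2 ratio -0.85, adjusted p = 8.69e-07), and the implied 95% interval of -1.12 to -0.59 overlaps that of Gpr17.

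Transcripts of the 2 genes could share reads at 2 exons of Lims2 that lie inside the last exon of Gpr17. These cover 188 bases, which is 3.62% of the exon bases of Gpr17 and 7.17% of the exon length listed for Lims2. No source used here says whether counting took account of strand, so reads on those bases cannot be assigned with certainty. If Gpr17 reads were spread evenly over its exons, the shared bases would hold 22.2 normalised counts at the CaKO mean and 37.6 at the implied control level. The difference between these is 15.5, and that between the implied control level and the CaKO mean of Lims2 is 117 normalised counts. Reads were 100 bp pairs, so more of them could touch these exons than the share of bases gives. Whether reads that touch exons of both genes were counted for either gene was not tested. The part of shared reads in the fall of Lims2 was not tested either. Within each library, Gpr17 was 4.66, 3.98, 4.04 and 4.14 times Lims2 in replicates 1 to 4. This ratio does not depend on how libraries are scaled, and its coefficient of variation of 7.37% is no larger than the 9.28% that counting alone would give.

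**Figure D2:**
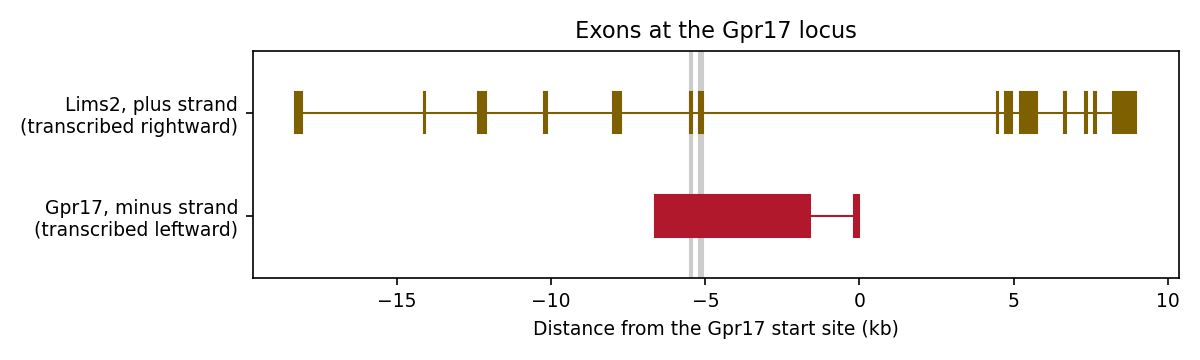
Exons (boxes) of Lims2 on the plus strand and Gpr17 on the minus strand, by distance in kilobases from the Gpr17 start site, with negative values downstream of it. Grey bands mark the 2 Lims2 exons, 188 bases in all, that lie inside the long last exon of Gpr17.

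Apart from Lims2, no gene near the 3 loci fell, and few had values. Within 500 kb of Gpr17, the annotation holds 30 other genes, 16 of them protein-coding, of which Lims2, Wdr33 and Syt4 had values. Wdr33, a subunit of the complex that processes messenger RNA ends, lies 34.0 kb from Gpr17 and had 708, 698, 673 and 663 normalised counts in CaKO replicates 1 to 4. Its log2 ratio per the authors' deposited table was 0.23 (adjusted p = 0.109). Syt4, a synaptotagmin of neuronal vesicles, also stood at 0.23 per the authors' deposited table (adjusted p = 0.128). Tshz2, a zinc finger gene 275 kb from Bcas1, was the only one of 17 neighbours there with a value, at 0.54 (adjusted p = 0.230 per the authors' deposited table). None of the 46 annotated genes within 500 kb of Olig1 had a value. That includes Olig2, the related factor that specifies the lineage, which ends 41.1 kb before Olig1 begins.

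Across the CaKO libraries, Olig1, Bcas1, Gpr17 and Lims2 were all lowest in replicate 3. That library was the lowest for 37.1% of the 1810 genes with a CaKO mean of at least 100 and for 63.0% of the 958 of them that were lower in CaKO at an unadjusted p below 0.05. When libraries were set to equal totals over the table instead of the authors' factors, replicate 3 was lowest for Bcas1 and Olig1 and replicate 2 for Gpr17 and Lims2. The share of 37.1% then became 22.8%. It was 33.3% when each library was scaled by its median ratio to the gene means. The ratios between the 3 lineage genes, which do not depend on scaling, differed from mouse to mouse within the CaKO group. Bcas1 was 0.962, 1.43, 1.19 and 1.25 times Gpr17 in replicates 1 to 4, a coefficient of variation of 16.1%. Olig1 was 1.93, 2.14, 1.86 and 2.54 times Gpr17, a coefficient of variation of 14.4%. Such a spread holds the differences between separate animals, and other gene pairs were not compared with it.

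**Figure D3:**
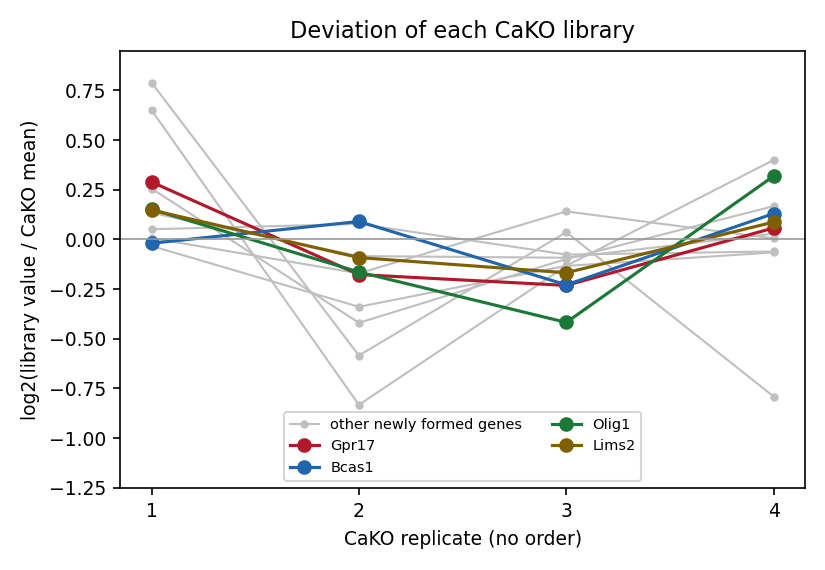
Each CaKO library's value relative to the gene's CaKO mean (y axis, log2) for Gpr17, Bcas1, Olig1 and Lims2, with the 7 other newly formed oligodendrocyte genes in grey. Lines join values of 1 gene and stand for no order; the 4 named genes are lowest in replicate 3, and some grey genes are far lower in replicate 2 or 4.

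None of the genes whose log2 pattern over the 4 CaKO libraries was nearest to these genes belongs to the lineage lists described below. Likeness was the root mean square difference of log2 values after the gene's own mean was taken out, among 1809 other genes with a CaKO mean of at least 100. Nearest to Gpr17 were Scg3, a granin of secretory granules, at a difference of 0.036, the nucleoside kinase Uck2 at 0.059 and the mitochondrial citrate carrier Slc25a1 at 0.061. Nearest to Bcas1 were the potassium channel gene Kcnc1 (0.020), Zfp809 (0.020) and the splicing factor gene Sf1 (0.027). Olig1 was nearest to Dis3l2 (0.032), the inhibitory synapse adhesion gene Nlgn2 (0.038) and Fbxl19 (0.042). Lims2 was nearest to the fatty acid carrier Fabp3 (0.023), the ribosomal protein gene Rps2 (0.029) and Fancd2 (0.029). Rps2 rose by 0.31 on the log2 scale per the authors' deposited table (adjusted p = 0.0303), so a like pattern within CaKO came with either direction between genotypes. The difference between Gpr17 and Lims2 was 0.090, with 30 genes nearer to Gpr17, and that between Gpr17 and Bcas1 was 0.207, with 615 genes nearer. With 4 libraries these distances are a description.

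Other genes of the newly formed stage that had a value were lower in CaKO as well. Of a list of 24 genes of committed precursors and newly formed oligodendrocytes, which includes Gpr17 and Bcas1, 9 (37.5%) had an unadjusted p below 0.05 and all 9 were lower, against 8.68% of all tested genes. The median log2 ratio of the 9 per the authors' deposited table was -0.70, against -0.22 for all 2047 tested genes with a p below 0.05 and -0.37 for those of them that were lower. Over all genes, 3 of the 24 (12.5%) fell, against 1.97%, and none rose. Gpr17 and Bcas1 were chosen for falling. Without them 7 of 22 (31.8%) were lower, with a median of -0.70 and a range from -0.90 to -0.22, and 1 of the 22 (4.55%) fell. Both medians cover only genes with a p below 0.05, which a gene with few reads passes only at a large ratio. Among these 7, those with CaKO means from 36.2 to 118 normalised counts stood between -0.90 and -0.70. Those with means from 301 to 1543 stood between -0.31 and -0.22. This list and those below were drawn up with earlier results of these data known, so their shares are a description and no independent support.

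The 1 of the 22 that fell was Cnksr3, a scaffold protein of the family that assembles kinase cascades below Ras. Cnksr3 had 53.3, 43.1, 49.7 and 71.9 normalised counts in CaKO replicates 1 to 4, and fell by 0.74 on the log2 scale per the authors' deposited table (adjusted p = 0.0291). Its call ended without replicate 1 (-0.73), 2 (-0.64) or 3 (-0.70), with little change in size. The noncoding RNA 9630013A20Rik, annotated as antisense to another gene whose reads may be mixed with its own if counting ignored strand, had the lowest fold change of the list at -0.90 per the authors' deposited table (adjusted p = 0.0687). Its CaKO libraries were far apart, at 156, 60.1, 92.5 and 52.1 normalised counts in replicates 1 to 4. Enpp6, a phosphodiesterase of newly forming oligodendrocytes, was similarly uneven at 185, 66.1, 107 and 113. Its log2 ratio was -0.70 per the authors' deposited table (adjusted p = 0.136). Replicate 1 was the highest library for both, and without it their log2 ratios were -1.30 and -1.01, past the threshold of a call.

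Of the other genes of this list with a value, none passed the threshold. Kif19a, a kinesin motor gene and the weakest of the 9, averaged 36.2 ± 7.27 normalised counts (SD, n = 4), with a log2 ratio of -0.81 per the authors' deposited table (adjusted p = 0.064). Tns3, a focal adhesion adaptor of the tensin family, averaged 885 ± 47.8 (SD, n = 4), at -0.29 per the authors' deposited table (adjusted p = 0.0649). Fyn, a Src-family kinase that promotes myelination, averaged 1543 ± 116 (SD, n = 4), at -0.22 per the authors' deposited table (adjusted p = 0.155). Itpr2, a calcium release channel of the endoplasmic reticulum, averaged 301 ± 26.4 (SD, n = 4), at -0.31 per the authors' deposited table (adjusted p = 0.131). Fyn and Tns3 are also made by other cells of the cortex. The remaining 15 genes, among them Neu4, Bmp4, Tcf7l2 and Myrf, have no value.

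Genes of the stages before and after had lower values too. Of 15 precursor genes, 3 (20%) were lower, against 8.68% of all tested genes, and none fell. C1ql1, a secreted C1q-like protein of precursors, had 83.4, 64.1, 20.9 and 77.1 normalised counts in CaKO replicates 1 to 4, and its log2 ratio of -0.80 per the authors' deposited table (adjusted p = 0.133) became -0.51 without replicate 3. Vcan, the matrix proteoglycan versican, was at -0.44 (adjusted p = 0.133) and Cacng4, an auxiliary protein of AMPA receptors, at -0.30 (adjusted p = 0.310) per the authors' deposited table. The count of 3 became 1 without replicate 3. The defining precursor genes Pdgfra and Cspg4 have no value. Of 30 genes of mature, myelinating cells, 18 (60.0%, against 8.68% of all tested genes) were lower and none higher, with a median of -0.42 per the authors' deposited table, and 5 (16.7%, against 1.97%) fell. The 5 were Mobp, Mbp, the fatty acid hydroxylase gene Fa2h, Cnp and Mag. Their log2 ratios per the authors' deposited table were -0.73, -0.68, -0.51, -0.35 and -0.32, in that order. The adjusted p-values were 1.37e-07, 5.38e-05, 0.0283, 0.0122 and 0.0279. Mobp and Mbp thus fell further than Bcas1 (-0.59) and Olig1 (-0.48). The adjusted p of Mobp was also smaller than that of Gpr17 (2.46e-06, at -0.76). At an adjusted p below 0.01, 2 of the 5 remained. Whether the newly formed list differs from the myelin list was not tested.

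**Figure D4:**
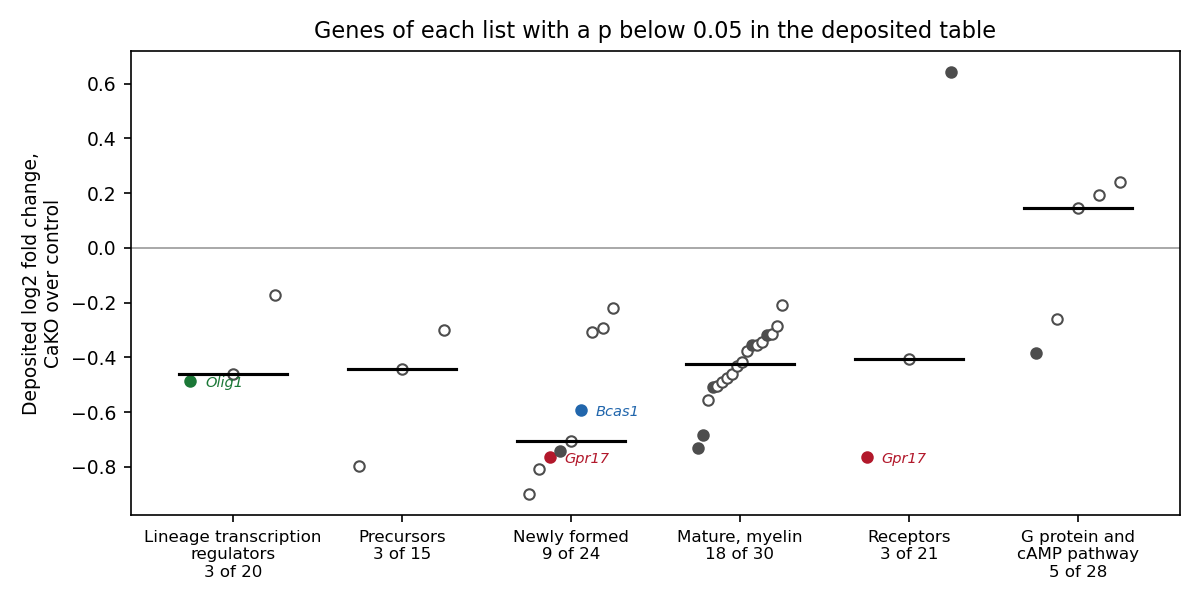
Deposited log2 ratios, CaKO over control (y axis), of the genes of 6 lists that have a p below 0.05; numbers under each name give these genes out of the list. Filled points have an adjusted p below 0.05 and bars are medians, at -0.70 for the newly formed list and -0.42 for the myelin list; Olig1, Gpr17 and Bcas1 are coloured.

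Of 20 transcription and chromatin regulators of the lineage, 3 were lower and none higher, and Olig1, chosen for falling, was the 1 that fell. Without it, 2 of 19 regulators (10.5%) were lower, near the 8.68% of all tested genes, and none fell. Nkx6-2, a homeodomain factor of maturing oligodendrocytes, had 56.3, 82.2, 61.6 and 80.2 normalised counts in CaKO replicates 1 to 4. Its log2 ratio was -0.46 per the authors' deposited table (adjusted p = 0.200). This gene is also on the myelin list and is counted as lower in both lists. Chd8, a chromatin remodeller active in most cells, averaged 1027 ± 57.1 (SD, n = 4), at -0.17 per the authors' deposited table (adjusted p = 0.275). Without replicate 3 the count of 3 became 1. Olig2, Sox10, Sox8, Myrf, Nkx2-2 and Tcf7l2 have no value, and the last 3 are also on the newly formed list.

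Of 21 receptors of the lineage or related to GPR17, 2 were lower and 1 was higher. Gpr17, chosen for falling, was 1 of the 2, and without it 1 of 20 (5.0%) was lower, against 8.68% of all tested genes. Lpar1, a lysophosphatidic acid receptor of oligodendrocytes, held 378, 329, 337 and 333 normalised counts in CaKO replicates 1 to 4, with a log2 ratio of -0.41 per the authors' deposited table (adjusted p = 0.0636). Oprk1, the kappa opioid receptor, which is also made by neurons, rose by 0.64 on the log2 scale per the authors' deposited table (adjusted p = 0.0473). It was the 1 of 21 receptors that rose, where 1.27% of all tested genes did. Its CaKO values were 163, 116, 134 and 98.0 normalised counts in replicates 1 to 4, and its call ended without replicate 1 (0.50), 2 (0.69) or 3 (0.62). The relatives P2ry12, P2ry1, Cysltr1 and Cysltr2 and the lineage receptor Gpr37 have no value. GPR17 signals mainly through inhibitory G proteins that lower cyclic AMP. Of 28 genes of that pathway, 3 were higher, with 7.14% of all tested genes higher, and 2 were lower. The lower ones made up 7.14% of the list, no larger than the 8.68% of all tested genes. The 1 call, a share of 3.57% against 1.97% of all tested genes, was Rgs4. Its product speeds the shut-off of G proteins and is abundant in neurons. Rgs4 averaged 11341 ± 1753 normalised counts (SD, n = 4) and fell by 0.38 on the log2 scale per the authors' deposited table (adjusted p = 0.0356); its call ended without replicate 2 or 4. Gnai1, Prkacb and Prkar1a stood at 0.24, 0.19 and 0.14, and Rapgef3, a cyclic AMP-activated exchange factor, at -0.26, per the authors' deposited table, and their adjusted p-values lay between 0.162 and 0.301.

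Markers of other cells in the tissue also had lower values, and for astrocytes the shares were higher than for the newly formed list. Of 10 astrocyte markers, 4 were lower (40%) and 2 fell (20%, Atp1b2 and Aldoc), against 8.68% and 1.97% of all tested genes. The shares of the newly formed list were 37.5% and 12.5%. Without Gpr17 and Bcas1, which were chosen for falling, they were 31.8% and 4.55%. The summed CaKO level of these 4 ran from 10325 to 12908 normalised counts. Of 12 neuronal markers, 3 were lower (25%) and 1 fell (8.33%, Nrgn), with a summed level from 48938 to 68623, lowest in replicate 3. Of 10 endothelial markers, 3 were lower (30%) and 1 fell (10.0%, Ly6c1), with a summed level from 1796 to 1876. Of 10 microglial markers, 1 (Trem2) was higher, at 144 to 178, and none was called. For the 9 newly formed genes the summed level ran from 4048 in replicate 3 to 4819 in replicate 1. The lower values are therefore not shown to be particular to the oligodendrocyte lineage, and the part of the other cell types in the result was not tested.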

How the data were processed

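RNA of 8 mice (4 CaKO, 4 controls, grouped by the genotype in the labels) was poly-A selected and read as 100 bp pairs, per the labels' protocols. Per the submitters' processing notes, TopHat2 2.0.12, HTSeq 0.6.1, DESeq2 1.30.1 and GRCm38 were used; the strand setting of the counting is not stated there. The library values are a signal: the authors divided each library's reads by a single factor. Every value is a multiple of the step that 1 read is worth (100.0% within a tolerance of 0.01), so values are called normalised counts although the table is named for FPKM. The log2 fold changes, p-values and adjusted p-values are those the authors deposited. A negative ratio means lower in CaKO, as it does for the 18 genes without reads in any CaKO library. Adjusted p-values matched a Benjamini-Hochberg adjustment over 12938 genes (largest relative difference 0.005), and 325 genes listed at 1 were treated as outside it. A count test of both groups could not be run without control values.

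Genes were matched to GENCODE M21 by position: 2266 exactly, 89 by at least 80% mutual overlap and 4 by the span of 1 transcript, with 13 unmatched. Standard errors were taken from the p-values as of a Wald test. To leave out a CaKO library, the mean was recomputed from the other 3 against the implied control level, and the standard error was widened 1.08 times; a call was kept at p of at most 0.00162. The number of tested genes, the step of 1 read, the standard errors and the left-out ratios were recovered from simulated data. Those data took their p-values from the same Wald formula, so they could not test that assumption. The matching by position was not tested. Python 3.11.15, pandas 2.3.3 and scipy 1.17.1 were used. Members and lists were chosen with earlier results of these data known. Genes named are the members, their neighbours within 500 kb, the 3 nearest patterns to each, genes with values in the lineage and receptor lists, and called genes of the other lists; defining genes with no value, and the uncalled pathway genes and Trem2, were added after the values were seen. Alternatives were other scalings, the median, stricter thresholds, a minimum mean of 50 and exact matches.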

Additional observations from a re-analysis of the deposited data

Results flagged for a closer look

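Lists of 4 values were examined for a library far from the others in 43 named genes, a rule that chance meets in about 1 of 20 groups. Lpar1 had 378 normalised counts in CaKO replicate 1, against 329 to 337 in the other CaKO libraries. Cnp, a myelin enzyme gene, had 2560 in CaKO replicate 1, against 2264 to 2285 in the others. Neither Gpr17, Bcas1, Olig1 nor Lims2 met the rule.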

How the results depend on the processing

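No paired analysis was possible because values of single control mice were not used here. Of 118 recomputed values, 105 kept their direction and call or stayed within the spread allowed, and none reversed. The recomputed list counts were made so that a gene could drop out but none could enter, and could therefore only stay or become smaller. Enpp6 and 9630013A20Rik, past the threshold of a call without replicate 1, were not added to them. Gpr17, Bcas1 and Lims2 kept their calls under every alternative run, with log2 ratios without 1 CaKO replicate from -0.87 to -0.69, -0.64 to -0.52 and -0.91 to -0.80. Those of Olig1 ran from -0.61 to -0.37, and its call ended without replicate 2 or 3 and at an adjusted p below 0.01 (-0.48). At that threshold 2 newly formed genes fell instead of 3, Gpr17 and Bcas1 but no longer Cnksr3. The threshold also left 0 called regulators instead of 1, 2 myelin genes instead of 5 and 0 pathway genes instead of 1. Without 1 replicate, called regulators ranged from 0 to 1, lower regulators from 1 to 3, lower precursors from 1 to 3, called pathway genes from 0 to 1 and lower pathway genes from 1 to 2. The cause was not tested, beyond the fewer libraries or stricter threshold itself. Control libraries could not be left out. Counting limits the weakest genes most: at the mean of Lims2 it gives a variation of 8.35%.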
